A study of Saccharomyces cerevisiae with 21 samples.

Results

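Biofilms of a dig1 mutant of the budding yeast Saccharomyces cerevisiae were compared with wild-type biofilms of the same Sigma1278B background by sequencing of polyadenylated RNA. The comparison holds the 3 libraries labelled dig1 and the 3 labelled WT, 6 of the 21 libraries of the series, and all 7126 features of the count tables. Sigma1278B is a laboratory strain that still switches to filamentous growth and forms mats. Cells of both groups were precultured for 16 h at 30 °C in liquid YEPD, a rich glucose medium, adjusted to an OD600 of 20, and placed in spots of 10 µl on YEPGal agar, on which galactose replaces glucose, where they stood for 24 h. The labels call the wild-type biofilms wild-type and the dig1 biofilms hyperfilamentous, and they call the 5 other mutants of the series hypofilamentous. They do not give the mating type, the ploidy, the kind of dig1 allele, or whether the mutant group was 1 clone, and they are silent on whether replicates were grown apart. The p-values below therefore measure the spread between libraries within groups, which may be technical. For the adjusted p-values of the main fit, that spread was estimated over all 21 libraries of the series. The question the labels imply is which transcripts differ in a biofilm that filaments more than the wild type does.

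Dig1 is a repressor that binds Ste12, the transcription factor on which the mating and the filamentation mitogen-activated protein kinase (MAPK) pathways converge. Phosphorylation of the complex by the kinases Fus3 and Kss1 relieves the repression, after which Ste12 alone, or with a partner, acts at pheromone response elements in the promoters of mating genes, and Ste12 with Tec1 acts on filamentation genes. Dig2 is a second repressor of Ste12 that shares part of this work with Dig1. Dig1 is known in addition to sit in the complex of Ste12 with Tec1, from which Dig2 is absent.

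The 3 dig1 libraries held 3139991 to 3284302 counts on features and the 3 wild-type libraries held 2981795 to 3202099. In each group replicate 3 lay close to a weighted mean of replicates 1 and 2. With weights of 0.6 and 0.4 the deviation of dig1 replicate 3 from that mean was 1.23 times the sampling variance, and with weights of 0.63 and 0.37 that of wild-type replicate 3 was 1.27 times, against 4.29 to 23.8 times when replicate 1 or 2 of either group was fitted from the other 2. The replicates 3 were not near-copies of any single library, so they were kept as samples, but the spread within a group may be understated. Without replicate 3 of all 7 groups, 64 of the 188 named genes kept their direction and their side of the adjusted p threshold of 0.05. Values without these replicates are given below for some genes and lists only, so a gene named without such a value may not pass without them. Replicate 2 of dig1 stood apart from replicate 1, with a correlation of log2 CPM of 0.947 across genes, which is below the 0.969 between replicates 1 of dig1 and wild type. In dig1 27.9% ± 0.654 (SD, n = 3) of alignment records were placed at more than 1 position, against 21.2% ± 0.417 (SD, n = 3) in wild type. That share was higher in every dig1 library than in every wild-type library, with an exact two-sided permutation p of 0.1, the smallest that 3 against 3 allows, and its part in the results below was not tested.

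DIG1 itself, on the reverse strand of chromosome XVI (R64 coordinates 462481 to 463839), checked the labels. Its level was 48.1, 68.9 and 65.6 CPM (counts relative to the library total, scaled by TMM factors) in wild-type replicates 1, 2 and 3, and 0, 0.341 and 0 CPM in dig1 replicates 1, 2 and 3. The dig1 libraries held 1 count of DIG1 in all and the wild-type libraries 549, a ratio of 561.6 per total count (95% exact conditional interval 100.4 to 22221, counting error only). The labelled mutants therefore lacked nearly all DIG1 reads. STE12 had a log2 fold change, dig1 minus wild type as in all that follow, of 0.13 ± 0.14 (SE, adjusted p = 0.639). DIG2 had -0.04 ± 0.20 (adjusted p = 0.925) and MCM1, which encodes a DNA-binding partner of Ste12, 0.01 ± 0.12 (adjusted p = 0.966). Of the 7 genes tested besides DIG1 in the list of the Ste12 complex and its kinases, KSS1, FUS3, TEC1 and KAR4 rose and none fell (2 rose without replicate 3 of any group). The median of the 7 was 0.47, against -0.006 over all tested genes. KSS1, the filamentation kinase, stood at 39.7, 48.4 and 45.0 CPM in the wild type and at 79.9, 89.7 and 89.2 CPM in dig1, a change of 0.96 ± 0.11 (adjusted p = 7.55e-06). FUS3, the mating kinase, stood at 144, 171 and 160 CPM in the wild type and at 233, 270 and 235 CPM in dig1, a change of 0.64 ± 0.10 (adjusted p = 0.000199). The groups did not overlap for either kinase. Over all 5786 tested genes, 12.8% had no overlap with dig1 higher and 14.7% had none with dig1 lower. These shares apply wherever a lack of overlap is given below. Since whole biofilms were sampled, more transcript per cell and a larger share of cells that carry the transcript cannot be told apart, here and in each result below.

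Across the transcriptome 909 of 5786 tested genes changed (15.7%; edgeR's quasi-likelihood test, Benjamini-Hochberg adjusted p below 0.05), 464 of them higher in dig1 (8.02%) and 445 lower (7.69%). At least 2-fold changes were seen for 140 genes that were higher (2.42%) and 55 that were lower (0.951%). The counts were smaller when only the 6 libraries were fitted, with 385 genes changed of 5674 tested (6.79%), and when replicate 3 of every group was left out, with 210 changed. Of those, 382 and 208 were among the 909. The number of lower genes was 254 without dig1 replicate 3, 275 without dig1 replicate 2 and 271 without wild-type replicate 3. With library totals in place of TMM factors 389 genes were higher and 625 lower.

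The rises were not spread evenly over the genome. Of 196 tested genes on chromosome IX, 149 rose (76.0%) and none fell, and 98.5% had a positive log2 fold change. Their median log2 fold change was 0.80 (quartiles 0.60 and 0.99), which is 1.74-fold. Chromosome III had a smaller shift, with 27 of 148 tested genes higher, 4 lower and a median of 0.24, or 1.18-fold. The medians of the other 14 chromosomes lay between -0.052 and 0.041. The shift of chromosome IX ran along its whole length, with medians of 0.68 to 0.99 in its 11 windows of 40 kb. On chromosome III the 8 windows had medians of 0.09 to 0.42.

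**Figure D1:**
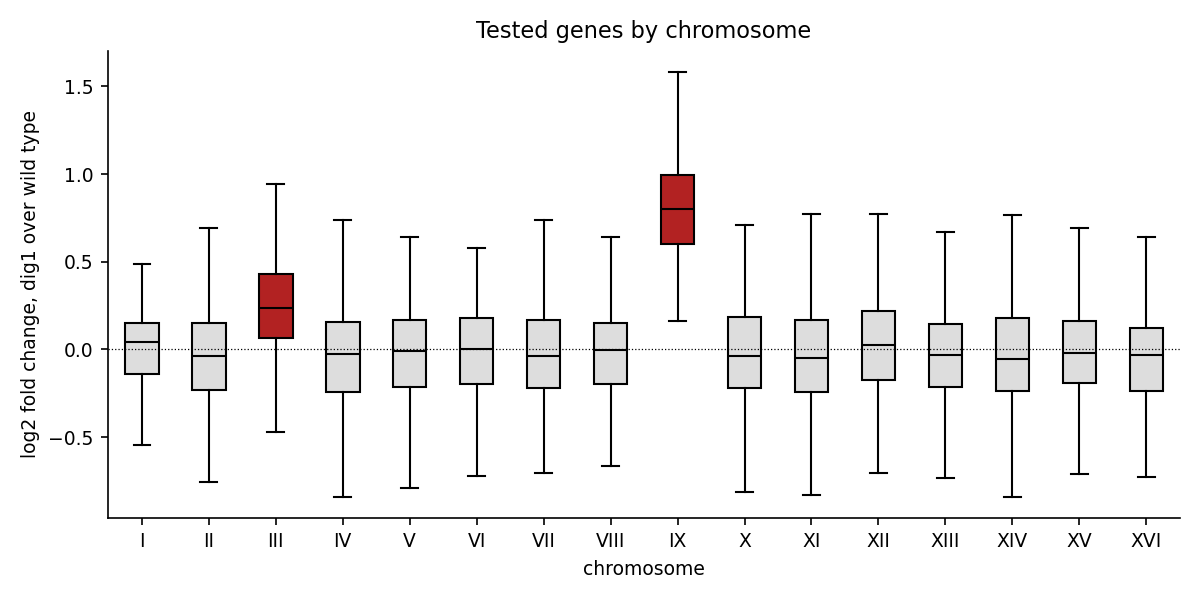
Log2 fold change (dig1 minus wild type, y axis) of the tested genes of each of the 16 chromosomes (x axis), with the median of each. Chromosome IX lies at 0.80 and chromosome III at 0.24, and the other 14 medians lie between -0.052 and 0.041.

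Each dig1 library showed the shift. Relative to the wild-type mean, the median of chromosome IX was 0.77, 0.77 and 0.82 in dig1 replicates 1, 2 and 3. The wild-type libraries lay at -0.019, 0.017 and -0.0009, and the 15 libraries of the other mutants between -0.107 and -0.008. Chromosome IX without FLO11 took 4.11%, 4.39% and 4.26% of the counts in the dig1 libraries and 2.27%, 2.41% and 2.32% in the wild type, a ratio of 1.82 (exact two-sided permutation p = 0.1, the smallest possible). For chromosome III the library medians were 0.249, 0.212 and 0.258 in dig1 and -0.012 to 0.024 in the wild type, but those of the other mutants reached 0.128, and its share of counts was 3.59% in dig1 and 3.60% in the wild type (exact p = 1). DNA copy number was not measured, and its part in these shifts was not tested. Genes of both chromosomes that are named with a log2 fold change are therefore given below with a second value, their log2 fold change relative to the median of their chromosome, a fit chosen after seeing the data. In that fit 294 genes were higher (5.08%) and 428 lower (7.4%), and 15 genes of chromosome IX lay above its median and 14 below. On the other chromosomes 276 of 5171 tested genes were higher (5.34%) and 432 lower (8.35%).

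**Figure D2:**
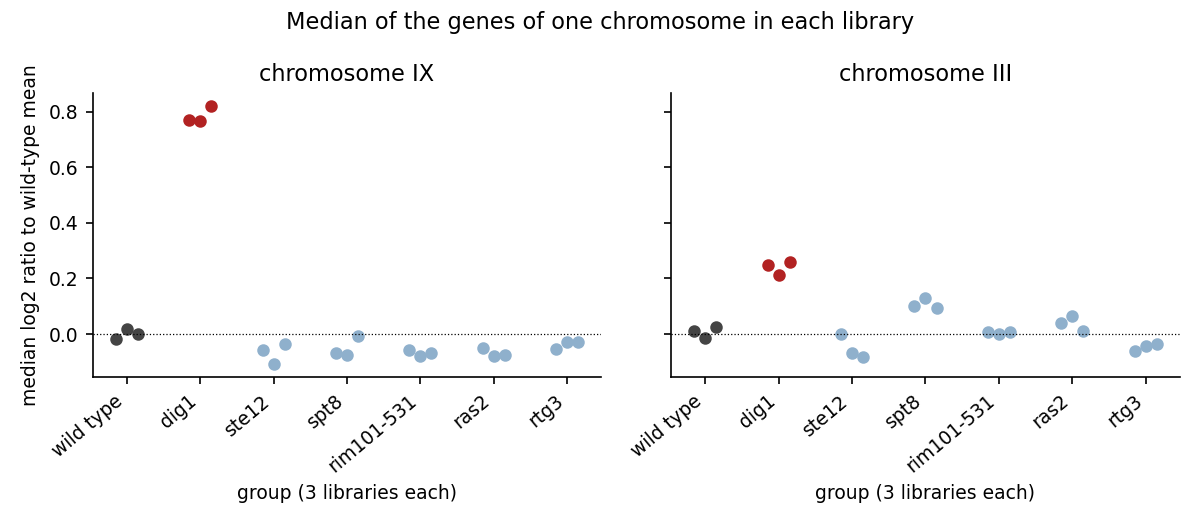
Median log2 level of the genes of chromosomes IX and III relative to the wild-type mean (y axis) in each of the 21 libraries, by group (x axis). On chromosome IX the 3 dig1 libraries lie at 0.77 to 0.82 and the other 18 libraries between -0.107 and 0.017.

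Most genes known as targets of the filamentation pathway rose in dig1. Of the 12 on the list, all tested, 9 rose and none fell, with a median log2 fold change of 0.75. Without replicate 3 of any group, 5 of the 12 were higher. PGU1, a secreted pectinase gene on chromosome X (722815 to 723900), stood at 92.9, 107 and 105 CPM in the wild type and at 1354, 1246 and 1306 CPM in dig1. Every dig1 library was more than 10 times above every wild-type library, and the change of 3.68 ± 0.16 (adjusted p = 5.98e-12) was called in each alternative fit. SVS1, which encodes a cell wall protein linked to vanadate resistance, rose from 246, 246 and 266 CPM to 806, 717 and 754 CPM, by 1.59 ± 0.12 (adjusted p = 3.34e-08). NFG1, a negative regulator of the filamentation pathway, rose from 242, 265 and 236 CPM to 663, 695 and 677 CPM, by 1.45 ± 0.17 (adjusted p = 7.05e-06). All 3 genes were thus well separated between the groups. TEC1, whose product joins Ste12 at filamentation genes, rose less, from 65.2, 76.4 and 67.0 CPM to 100.3, 104 and 96.8 CPM (0.53 ± 0.12, adjusted p = 0.00465; 0.14 without replicate 3). CLN1, a G1 cyclin gene that promotes cell elongation, rose by 0.71 ± 0.11 (adjusted p = 0.000101), GIC2, which encodes an effector of the polarity GTPase Cdc42, by 0.66, and CHS7, needed for export of a chitin synthase, by 0.58. Without replicate 3 of any group CLN1 (adjusted p = 0.055), GIC2 (0.084) and CHS7 (0.054) did not pass. The mucin-like sensor gene MSB2 did not pass the test, with 925 CPM ± 93.4 (SD, n = 3) in the wild type and 961 CPM ± 8.87 (SD, n = 3) in dig1.

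**Figure D3:**
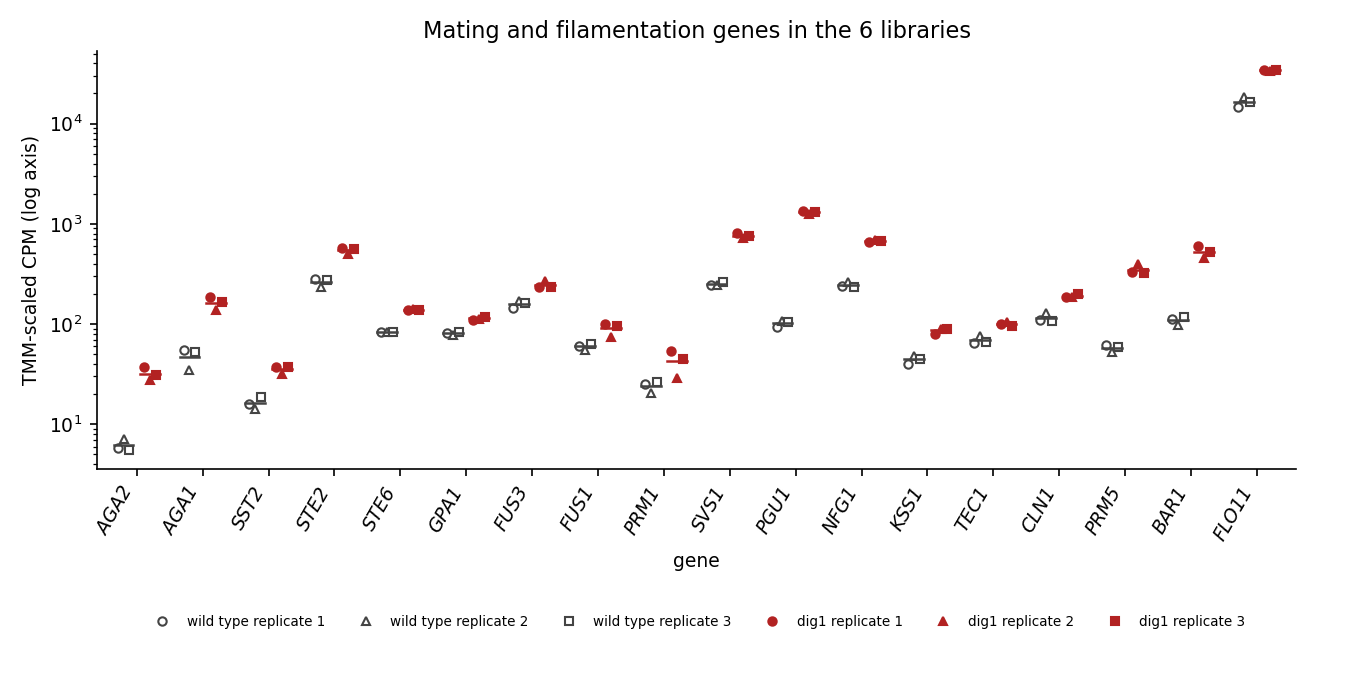
Level in TMM-scaled CPM (log axis) of filamentation and mating genes in the 3 wild-type and 3 dig1 libraries, 1 point per library. PGU1 and PRM5 show the wide gaps given in the text.

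Upstream components of the filamentation pathway mostly did not pass the test. Of 21 tested besides DIG1, 4 rose (1 without replicate 3 of any group) and 1 fell, with a median of 0.09. The risers were KSS1, TEC1, the mucin sensor gene HKR1 (0.41) and YPS1, which encodes the protease that processes Msb2 (0.85 ± 0.16, adjusted p = 0.000926). STE7, the MAPK kinase gene, fell by 0.45 ± 0.14 (adjusted p = 0.033) and did not pass with the 6 libraries alone (adjusted p = 0.22). Among 14 tested transcription factor genes of filamentous growth, 5 rose and 1 fell. Without wild-type replicate 2 the risers were 3, and without replicate 3 of any group 1 rose, and PHD1 (adjusted p = 0.064), MSS11 (0.085), NRG1 (0.13) and MGA1 (0.42) did not pass. NRG2, a zinc-finger repressor gene, stood at 38.1, 26.3 and 45.7 CPM in the wild type and at 105, 128 and 113 CPM in dig1 (1.66 ± 0.16, adjusted p = 1.05e-06), with no overlap. Its paralogue NRG1 rose by 0.61, PHD1 by 0.67, MSS11, a FLO11 activator gene, by 0.76, and MGA1 by 1.01 from low counts. RIM101, a repressor gene of the pH response, fell by 0.36. FLO8, the activator gene whose loss abolishes filaments in other laboratory strains, had 0.25 and did not pass.

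Genes of the mating response rose beside them, with no pheromone named in the labels. Of 5 tested genes that only cells of mating type a express, 4 rose and none fell, with a median of 1.05, and the count was 4 in each of the 16 alternative fits. AGA2, the binding subunit of the a-agglutinin that joins mating cells, stood at 5.81, 7.15 and 5.58 CPM in the wild type and at 37.5, 27.6 and 31.1 CPM in dig1 (2.37 ± 0.20, adjusted p = 1.61e-07). BAR1, the secreted protease that degrades alpha-factor, stood at 113, 96.9 and 119 CPM in the wild type and at 604, 453 and 529 CPM in dig1. Its change was 2.27 ± 0.19 (adjusted p = 9.01e-08), and 1.47 relative to the median of chromosome IX, on which it lies. STE2, the alpha-factor receptor gene, rose by 1.05 ± 0.12 (adjusted p = 6.48e-06) and the a-factor exporter gene STE6 by 0.74 ± 0.08 (adjusted p = 1.65e-06). AGA2, BAR1, STE2 and STE6 were all higher in every dig1 library than in any wild-type library. The a-factor gene MFA2 and the alpha mating-type genes MATALPHA1 and MATALPHA2 were listed at 0 in all 6 libraries. Such a 0 does not show absence of the transcript, since records placed at more than 1 position enter no gene count. Of 4 tested alpha-specific genes 1 rose. That gene was AFB1, which encodes a blocker of a-factor, with 79.0 CPM ± 1.98 (SD, n = 3) in the wild type and 166 CPM ± 45.9 (SD, n = 3) in dig1.

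In the list of receptor, G protein and kinase genes 3 of 11 rose and 1, STE7, fell. SST2, whose product turns off the G protein, stood at 15.8, 14.3 and 18.8 CPM in the wild type and at 37.5, 31.7 and 37.7 CPM in dig1 (1.13 ± 0.17, adjusted p = 0.000115). GPA1, the G protein alpha subunit gene, rose by 0.49 ± 0.12 (adjusted p = 0.0095). Of 20 tested genes of cell fusion and the mating cell surface 9 rose and none fell, with a median of 0.52, and 5 rose in the 6 libraries alone as well as without replicate 3. Since 5 of the 20 lie on chromosomes III and IX, the count off these was 4 of 15, with a median of 0.07. Relative to the chromosome medians 6 of 20 were higher. PRM5, a pheromone-regulated membrane protein gene, stood at 61.6, 53.0 and 59.3 CPM in the wild type and at 329, 394 and 322 CPM in dig1, a change of 2.59 ± 0.14 (adjusted p = 2.55e-10) and of 1.79 relative to chromosome IX. AGA1, the anchor subunit of the a-agglutinin, stood at 54.5, 35.1 and 52.4 CPM in the wild type and at 185, 138 and 164 CPM in dig1 (1.78 ± 0.18, adjusted p = 1.24e-06). FUS1, a membrane protein gene of the fusion site and a common reporter of the pathway, moved less, from 60.3, 55.3 and 63.9 CPM to 101, 75.05 and 95.7 CPM. Its change was 0.60 ± 0.11 (adjusted p = 0.000794), 0.36 relative to chromosome III, where the adjusted p was 0.04. Without replicate 3 of any group FUS1 did not pass (adjusted p = 0.062). The groups did not overlap for PRM5, AGA1 or FUS1. SCW10, a glucanase-like wall protein gene, rose by 0.82 ± 0.10 (adjusted p = 1.26e-05) and PRM1, a gene of membrane fusion, by 0.81 ± 0.19 (adjusted p = 0.00601; 0.064 in the 6 libraries alone). PRM2 on chromosome IX rose by 0.84, but by 0.04 relative to its chromosome, and KAR4 and FIG2 on chromosome III did not pass relative to theirs (adjusted p = 0.34 and 0.058).

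The promoters of 5 genes that rose are shown because each holds the core of the pheromone response element, TGAAACA, searched on both strands of the 300 bases before the start codon. Each run covers positions 300 to 151 before the start codon, read 5′ to 3′ on the gene's strand from the R64 genome, and capitals mark the element, written TGTTTCA where it lies on the opposite strand. The R64 genome is of another strain, so the letters of Sigma1278B may differ. AGA1 is at chrXIV:703399-703548 (forward strand), FUS1 at chrIII:71503-71652 (forward), BAR1 at chrIX:322042-322191 (forward), PRM5 at chrIX:141720-141869 (reverse) and SVS1 at chrXVI:242851-243000 (reverse).
AGA1: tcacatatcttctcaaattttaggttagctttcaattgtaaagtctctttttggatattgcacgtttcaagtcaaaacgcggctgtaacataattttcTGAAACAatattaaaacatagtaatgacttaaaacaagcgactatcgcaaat
FUS1: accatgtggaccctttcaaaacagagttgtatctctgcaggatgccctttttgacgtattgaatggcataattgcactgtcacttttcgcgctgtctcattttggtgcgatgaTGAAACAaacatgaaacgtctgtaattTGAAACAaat
BAR1: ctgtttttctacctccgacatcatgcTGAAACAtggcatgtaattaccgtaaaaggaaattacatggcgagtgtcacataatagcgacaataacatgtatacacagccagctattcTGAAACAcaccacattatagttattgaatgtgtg
PRM5: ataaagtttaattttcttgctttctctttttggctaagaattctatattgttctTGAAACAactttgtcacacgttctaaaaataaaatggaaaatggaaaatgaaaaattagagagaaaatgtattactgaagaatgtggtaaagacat
SVS1: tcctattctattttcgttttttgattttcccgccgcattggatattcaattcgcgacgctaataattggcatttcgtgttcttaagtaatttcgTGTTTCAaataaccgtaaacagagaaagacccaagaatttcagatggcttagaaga
FUS1 and BAR1 have 2 copies in the run, and AGA1, PRM5 and SVS1 have 1. The element was not particular to genes that changed: it was in 6.97% of all 5506 promoters read, in 9.42% (26 of 276) of those of genes that rose off chromosomes III and IX, in 4.64% (20 of 431) of those that fell there and in 6.71% (10 of 149) of those that rose on chromosome IX. Among the 84 genes off both chromosomes that rose at least 2-fold, 6 held it (7.14%). The window held no copy before PGU1, NFG1, KSS1, FLO10, FLO11 or CLN1.

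NFG1 is shown for the Tec1 element CATTCT, of which its window has 3 copies, all on the opposite strand and so written AGAATG. The run covers positions 300 to 101 before its start codon, chrXII:230552-230751 on the reverse strand of R64.
NFG1: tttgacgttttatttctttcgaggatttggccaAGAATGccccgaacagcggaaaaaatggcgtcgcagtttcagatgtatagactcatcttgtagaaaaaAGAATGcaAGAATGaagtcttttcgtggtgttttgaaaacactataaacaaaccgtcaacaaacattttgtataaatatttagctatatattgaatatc
CATTCT was in 17.2% of all promoters read, in 22.5% (62 of 276) of those of genes that rose off chromosomes III and IX and in 14.6% (63 of 431) of those that fell. The other form searched, CATTCC, was in 9.23% of all, 10.1% of the risers and 9.51% of the fallers. Among genes off both chromosomes that changed at least 2-fold, CATTCT was in 23.8% (20 of 84) of risers and 20% (10 of 50) of fallers. CATTCC was in 14.3% of the same risers and 16% of the same fallers. These are matches of letters and not measured binding.

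Cell surface adhesins differed among themselves. Of 9 tested flocculin and agglutinin genes 5 rose and none fell, and relative to the chromosome medians 3 were higher. FLO10, a flocculin gene that is usually silent, on chromosome XI (646356 to 649865), stood at 56.1, 39.7 and 65.6 CPM in the wild type and at 1018, 1000 and 998 CPM in dig1. The 3 dig1 libraries lay close together and far above the wild type (4.22 ± 0.28, adjusted p = 5.48e-09). FLO11, the flocculin on which filaments and mats depend, on chromosome IX (389572 to 393675), stood at 14511, 18286 and 16624 CPM in the wild type and at 34480, 33818 and 34518 CPM in dig1. It rose by 1.06 ± 0.14 (adjusted p = 1.97e-05), and relative to the median of chromosome IX its change was 0.26 with an adjusted p of 0.26. ICR1, a noncoding RNA read across the FLO11 promoter and named here after its values were seen, rose from 12.9, 8.13 and 9.77 CPM to 31.8, 20.1 and 22.1 CPM (1.26 ± 0.27, adjusted p = 0.00223; 0.077 without replicate 3). The coordinate table used does not place ICR1, so it has no value relative to a chromosome, while the median of chromosome IX, which holds FLO11, is 0.80. FLO1, FLO5 and FLO9 did not pass the test, and reads of these repeated and similar genes are uncertain.

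Of 5 tested seripauperin genes, which encode mannoproteins of the anaerobic cell wall, 4 rose and none fell (median 2.02), while the other 19 on the list did not pass the filter on low counts. PAU17 stood at 8.39, 10.4 and 9.07 CPM in the wild type and at 79.9, 64.8 and 78.8 CPM in dig1 (3.00 ± 0.16, adjusted p = 1.46e-10). PAU5 stood at 72.0, 47.5 and 67.3 CPM in the wild type and at 331, 340 and 329 CPM in dig1 (2.42 ± 0.17, adjusted p = 1.21e-08). No wild-type library reached any dig1 library for either gene, but members of this family are near-identical, so the split of reads among them is uncertain. Of 8 tested DAN and TIR family genes 6 rose and none fell, with PAU23 counted in both lists. Among them were TIR4 by 1.41 ± 0.21 (adjusted p = 7.42e-05) and TIR3 by 1.67 ± 0.20 (adjusted p = 6.09e-06; 0.87 relative to chromosome IX). The DAN and TIR count was 3 without replicate 3 of any group, and 3 without dig1 replicate 1, without dig1 replicate 3 or without wild-type replicate 3. TIR1 stood at 1193, 480 and 895 CPM in the wild type and at 1589, 1341 and 1496 CPM in dig1, so the wild-type libraries were far apart, and it did not pass in the 6 libraries alone (adjusted p = 0.16).

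Other wall genes moved in both directions. SIM1, a SUN-family wall gene on chromosome IX, stood at 522, 553 and 543 CPM in the wild type and at 2035, 2004 and 2057 CPM in dig1. This rise of 1.91 ± 0.09 (adjusted p = 1.54e-11) was 1.11 relative to the chromosome. Over all tested genes 8.02% rose and 7.69% fell. Of 27 tested structural wall protein genes 3 rose (11.1%) and 8 fell (29.6%), and of 28 glucan and chitin enzyme genes 9 rose (32.1%) and 3 fell (10.7%). With the 6 libraries alone these counts were 2 and 3, and 4 and 2, and without replicate 3 of any group they were 2 and 2, and 0 and 1. Of the structural genes 5 fell when dig1 replicate 2 or 3 was left out, and 5 rose when dig1 replicate 1 or wild-type replicate 2 was left out. YGP1, a secreted glycoprotein gene of stationary phase, stood at 5278, 4374 and 4778 CPM in the wild type and at 1946, 1041 and 1601 CPM in dig1 (-1.65 ± 0.22, adjusted p = 2.07e-05). SPI1, a wall protein gene of the same phase, stood at 1559, 1234 and 1483 CPM in the wild type and at 708, 670 and 654 CPM in dig1 (-1.07 ± 0.11, adjusted p = 2.14e-06). Both were lower in every dig1 library than in any wild-type library. Of the 10 genes by which daughter cells digest the septum, DSE4, an endoglucanase gene, fell by 1.47 ± 0.19 (adjusted p = 1.73e-05) and EGT2 fell by 0.84 ± 0.16 (adjusted p = 0.000778). The chitinase gene CTS1 of that list had 0.39 and did not pass. CHS1 and CHS7 of chitin synthesis rose by 0.62 and 0.58 (adjusted p = 0.07 and 0.054 without replicate 3). SLT2, the MAPK gene of wall integrity, rose by 0.46 as 1 of 2 risers of 18 tested, which is 11.1% against 8.02% over all tested genes. That count was 4 without dig1 replicate 2, and none of the 18 passed in the 6 libraries alone or without replicate 3.

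Of 30 tested polarity and bud site genes 6 rose (3 without replicate 3) and none fell, and all 5 septin genes stayed short of the threshold. AXL2, the axial bud site receptor gene, rose from 149, 131 and 147 CPM to 373, 318 and 379 CPM (1.32 ± 0.10, adjusted p = 4.82e-08), which is 0.52 relative to chromosome IX (adjusted p = 0.0017). RAX2, which marks the bipolar bud site, rose from 74.2, 87.8 and 79.9 CPM to 136, 199.9 and 161 CPM (1.04 ± 0.15, adjusted p = 6.84e-05). BNR1, a formin gene on chromosome IX, rose by 1.38, but had 0.58 relative to the chromosome and did not pass there (adjusted p = 0.068). Of 12 tested cyclin genes 4 rose and 1 fell. PCL1, a G1 partner of the kinase Pho85, stood at 66.2, 79.0 and 77.1 CPM in the wild type and at 195, 168 and 179 CPM in dig1 (1.29 ± 0.12, adjusted p = 4.35e-07). PCL2 rose by 0.77 and CLN1 by 0.71, whereas CLN2 had 0.05 and did not pass. The mitotic cyclin genes CLB1 and CLB2 moved in opposite directions, CLB1 by 0.73 ± 0.11 (adjusted p = 8.84e-05) and CLB2 by -0.67 ± 0.17 (adjusted p = 0.00775).

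Of 19 tested phosphate regulon genes 8 rose and 1 fell, and 5 rose without replicate 3. PHO89, a sodium and phosphate cotransporter gene on chromosome II (796798 to 798522), stood at 8.07, 8.13 and 7.33 CPM in the wild type and at 203, 309 and 244 CPM in dig1 (5.0 ± 0.40, adjusted p = 5.77e-08). PHO84, the high-affinity phosphate transporter gene, stood at 1300, 1012 and 1223 CPM in the wild type and at 2375, 2673 and 2566 CPM in dig1 (1.11 ± 0.13, adjusted p = 6.02e-06). No dig1 library of either gene came down to a wild-type library. GIT1, a transporter gene for glycerophosphoinositol, rose by 2.78 ± 0.19 (adjusted p = 6.37e-09; 2.54 relative to chromosome III) and SPL2, an inhibitor of low-affinity uptake, by 2.61 ± 0.41 (adjusted p = 0.000136). PHO8, the vacuolar phosphatase gene, fell by 0.60. The sensor gene PHO81, the low-affinity transporter gene PHO90 and 3 of the 4 tested VTC genes did not pass, and PHO11 and PHO12, which rose, are near-identical copies whose reads are uncertain.

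Of 18 tested genes known to respond to the zinc regulator Zap1, 8 rose and 1 fell, and 5 rose in the 6 libraries alone and 4 without replicate 3. ZPS1, a wall protein gene of zinc shortage, stood at 82.3, 84.2 and 79.9 CPM in the wild type and at 3151, 1063 and 2424 CPM in dig1 (4.75 ± 0.46, adjusted p = 7.73e-07). ZRT1, the high-affinity zinc transporter gene, stood at 139, 422 and 227 CPM in the wild type and at 3058, 1466 and 2508 CPM in dig1 (3.16 ± 0.45, adjusted p = 4.53e-05). ZAP1 itself stood at 20.3, 23.4 and 18.5 CPM in the wild type and at 66.9, 26.3 and 56.0 CPM in dig1 (1.26 ± 0.26, adjusted p = 0.00164). Replicate 2 of dig1 was the lowest of the mutant libraries for each of these genes, and for ZAP1 it lay just above the wild type. ADH4, an alcohol dehydrogenase gene, rose from 56.8, 57.5 and 54.1 CPM to 289, 112 and 238 CPM in the same order. YOR387C, a gene of unknown function named here after its values were seen, had 893, 18.1 and 563 CPM in dig1 and at most 5.24 CPM in the wild type. The transporter gene ZRT2, which takes up zinc with low affinity, had 0.27 and did not pass, and ZAP1 did not pass without replicate 3 (adjusted p = 0.17).

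The wild-type libraries were uneven for iron genes. Of 24 tested iron regulon genes 11 fell and 1 rose, with a median of -0.51. FIT3, a wall mannoprotein gene of siderophore retention, stood at 974, 4316 and 2158 CPM in the wild type and at 474, 746 and 561.9 CPM in dig1 (-2.06 ± 0.41, adjusted p = 0.00121). ARN1, a siderophore transporter gene, stood at 220, 1167 and 520 CPM in the wild type and at 170, 280 and 209 CPM in dig1 (-1.53 ± 0.40, adjusted p = 0.0115). Wild-type replicate 2 was the highest library for both genes, and for ARN1 the wild-type range overlapped that of dig1. Without wild-type replicate 2 the count was 3 lower and 1 higher, it was 5 lower without dig1 replicate 3 and 7 lower without dig1 replicate 1, and with the 6 libraries alone none of the 24 passed.

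**Figure D4:**
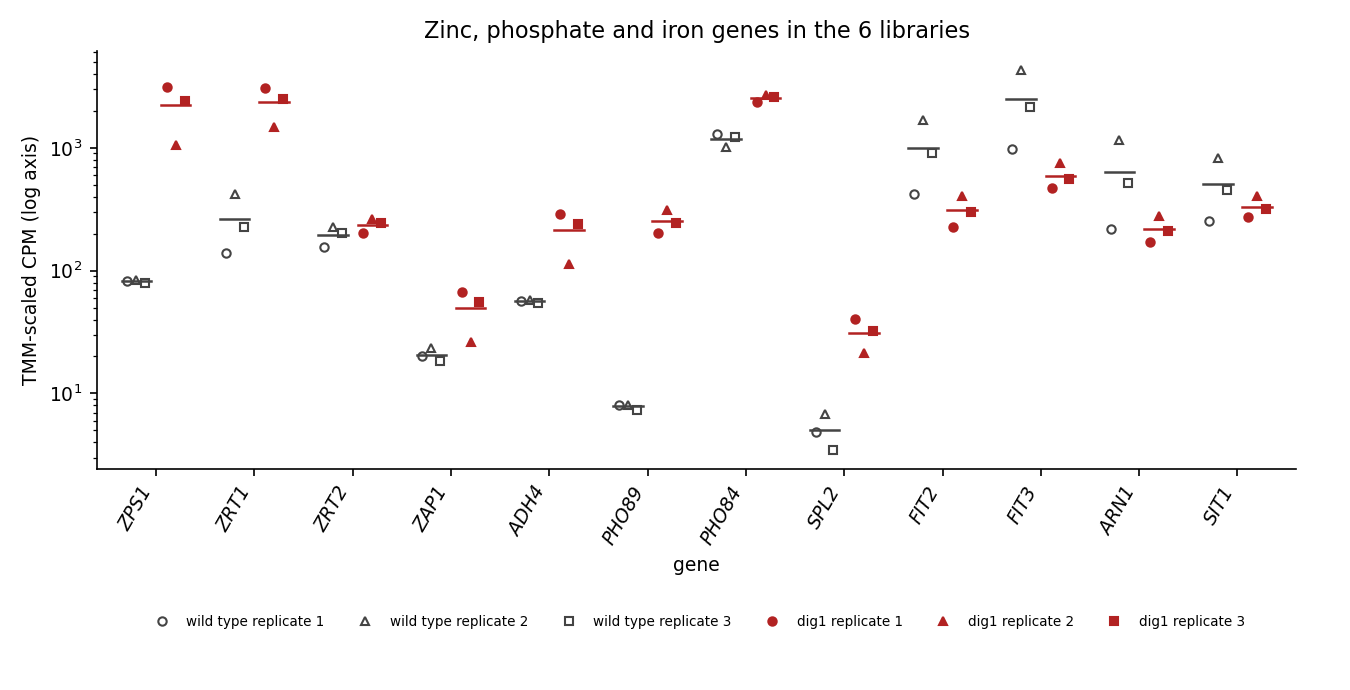
Level in TMM-scaled CPM (log axis) of zinc, phosphate and iron genes in the 3 wild-type and 3 dig1 libraries, 1 point per library. ZPS1 and PHO89 are separated in every library, and for FIT3 and ARN1 the wild-type libraries are spread from 974 to 4316 and from 220 to 1167 CPM.

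Of 9 tested genes of fatty acid synthesis and desaturation 5 rose (2 without replicate 3) and none fell, with a median of 0.64. ACC1, acetyl-CoA carboxylase, stood at 1536, 1690 and 1600.0 CPM in the wild type and at 3199, 3242 and 3303 CPM in dig1 (1.01 ± 0.10, adjusted p = 1.05e-06). OLE1, the fatty acid desaturase gene, stood at 5391, 5398 and 5411 CPM in the wild type and at 8492, 8375 and 8449 CPM in dig1 (0.64 ± 0.11, adjusted p = 0.000333). Without replicate 3 of any group OLE1 did not pass (adjusted p = 0.11). The libraries of each group lay close together for both genes. MGA2, which encodes the membrane-bound activator of OLE1, rose by 1.54 ± 0.14 (adjusted p = 3.16e-07; 0.74 relative to chromosome IX), and the synthase genes FAS1 and FAS2 by 0.64 and 0.67. Of 24 tested ergosterol genes 8 rose and none fell, among them ERG1, squalene epoxidase, at 0.91 ± 0.14 (adjusted p = 0.000109). The ergosterol count was 5 without dig1 replicate 2, 2 in the 6 libraries alone and 0 without replicate 3. PDR11, a sterol importer gene on chromosome IX, rose by 1.58 and by 0.78 relative to the chromosome.

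Of 25 tested sulfur and methionine genes 7 rose (3 in the 6 libraries alone) and 1 fell. MET6, methionine synthase, stood at 204, 223 and 220.2 CPM in the wild type and at 332, 892 and 574 CPM in dig1 (1.48 ± 0.30, adjusted p = 0.00165). Replicate 2 of dig1 was the highest library, as it was for MET17 and SAM2, and without replicate 3 of any group 1 gene of the list was higher. MET4, the activator gene of the pathway, fell by 0.55 ± 0.09 (adjusted p = 0.000262). Of 35 tested genes of general amino acid control 6 rose and 2 fell. Of the 35, 4 lie on chromosome IX and 1 on chromosome III. Off these chromosomes 2 of 30 rose and 2 fell, against 5.34% and 8.35% of all tested genes there. Of 22 tested nitrogen catabolite genes 8 rose and 1 fell, among them the permease genes GAP1 (0.77), PUT4 (0.78) and MEP2 (0.76), the last an ammonium transporter needed for filaments in diploids. Without replicate 3 of any group 1 of the 22 rose, and GAP1 (adjusted p = 0.07), PUT4 (0.051) and MEP2 (0.1) did not pass. Of those 8, the 4 DAL genes lie on chromosome IX, and relative to the chromosome medians 4 of the list were higher and 2 lower.

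Of 30 tested genes of the stress regulators Msn2 and Msn4, 8 fell and none rose (median -0.47 off chromosomes III and IX), and of 27 heat shock chaperone genes 8 fell and none rose. NQM1, a transaldolase gene, fell by 1.31 ± 0.18 (adjusted p = 4.45e-05) and SSA3, a stress-induced chaperone gene, by 1.01 ± 0.16 (adjusted p = 0.000177). DDR2, a small stress protein gene, stood at 228, 357 and 258 CPM in the wild type and at 161, 81.9 and 138 CPM in dig1 (-1.15 ± 0.21, adjusted p = 0.000579). Replicate 2 of dig1 was the lowest library for DDR2 and for YGP1. Of the stress and chaperone genes, 4 and 2 fell with the 6 libraries alone and 3 and 0 without replicate 3. Without dig1 replicate 3, wild-type replicate 1 or wild-type replicate 3, 5 of the chaperone genes fell.

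The windows before DDR2 and SPI1 are shown for the stress response element AGGGG, written CCCCT on the opposite strand, which the regulators Msn2 and Msn4 bind. The runs cover positions 300 to 101 before the start codon, with DDR2 at chrXV:231856-232055 (reverse strand) and SPI1 at chrV:468070-468269 (forward strand) in R64, and capitals mark 3 and 2 copies.
DDR2: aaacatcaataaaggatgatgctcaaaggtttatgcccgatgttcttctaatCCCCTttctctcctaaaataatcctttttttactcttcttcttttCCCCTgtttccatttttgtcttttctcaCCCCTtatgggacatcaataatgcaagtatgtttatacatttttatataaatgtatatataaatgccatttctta
SPI1: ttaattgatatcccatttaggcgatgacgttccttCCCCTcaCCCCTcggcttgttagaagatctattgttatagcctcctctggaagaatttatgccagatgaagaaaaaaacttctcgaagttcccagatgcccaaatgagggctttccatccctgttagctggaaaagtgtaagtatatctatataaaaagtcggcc
AGGGG was in 22.6% (1246) of the 5506 promoters read. Off chromosomes III and IX it was in 28.5% (123 of 431) of those of genes that fell, in 19.6% (54 of 276) of those that rose, and in 48% (24 of 50) of those that fell at least 2-fold. Among the 30 listed stress genes 22 held it. No test was made of these shares.

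Of 36 tested genes of the respiratory chain and ATP synthase 19 fell and none rose, with a median of -0.46. COX6, a subunit of cytochrome c oxidase, stood at 723, 684 and 717 CPM in the wild type and at 532, 432 and 481 CPM in dig1 (-0.56 ± 0.10, adjusted p = 0.000744). ATP1, the alpha subunit of ATP synthase, stood at 2723, 3276 and 2833 CPM in the wild type and at 2159, 1465 and 1897 CPM in dig1 (-0.68 ± 0.18, adjusted p = 0.0151). Every dig1 library was below every wild-type library for both, and dig1 replicate 2 was the lowest. Without dig1 replicate 2, 5 of the 36 fell and 2 rose, without any other of the 6 libraries except dig1 replicate 1, 11 or 12 fell, with the 6 libraries alone 2 fell, and without replicate 3 none passed. Of 66 tested mitochondrial ribosomal protein genes 14 fell and 1 rose (median -0.32), and 3 fell without dig1 replicate 2 or wild-type replicate 2, 4 without dig1 replicate 3, 5 without wild-type replicate 3 and 22 with library totals in place of TMM factors. The riser, RSM25, is on chromosome IX and had -0.05 relative to its median. Of 17 tested tricarboxylic acid cycle genes 5 fell, among them both isocitrate dehydrogenase genes, IDH1 (-0.87) and IDH2 (-0.88), and that count was 2 without dig1 replicate 2 and 3 without dig1 replicate 3 or wild-type replicate 2. In the 6 libraries alone 1 tricarboxylic acid cycle gene and 1 mitochondrial ribosomal protein gene fell, and without replicate 3 of any group none did. Cytosolic ribosomal protein genes had a median of 0.16, and 128 of 137 had a positive log2 fold change. Of the 137, 6 rose, which is 4.38% against 8.02% over all tested genes. The count was 14 without dig1 replicate 1, 2 in the 6 libraries alone and 0 without replicate 3. Of the 6 risers, RPL2B, RPL34B, RPS24B, RPL16A and RPL40A lie on chromosome IX, and 1 was higher relative to the chromosome medians.

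Several steep falls lay in metabolism. URA1, the dihydroorotate dehydrogenase gene of pyrimidine synthesis, stood at 1393, 1333 and 1344 CPM in the wild type and at 247, 526 and 369 CPM in dig1 (-1.83 ± 0.24, adjusted p = 2.46e-05). It was 1 of 3 of the 13 tested pyrimidine genes that fell, with URA4 (-0.78) and URA10 (-1.26), and none rose. RIB4, lumazine synthase of riboflavin synthesis, stood at 417, 343 and 359 CPM in the wild type and at 126, 108 and 126 CPM in dig1 (-1.64 ± 0.14, adjusted p = 1.33e-07). MRH1, a plasma membrane protein gene related to the heat shock gene HSP30, stood at 529, 765 and 612 CPM in the wild type and at 182, 140.2 and 167 CPM in dig1 (-1.96 ± 0.15, adjusted p = 3.34e-08). The groups were far apart for URA1, RIB4 and MRH1. YRO2 of the MRH1 family fell by 1.59 ± 0.27 (adjusted p = 0.000351; 0.085 without replicate 3), and HSP30 on chromosome III had -0.39 and did not pass (adjusted p = 0.153), while relative to the chromosome it had -0.63 (adjusted p = 0.023).

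**Figure D5:**
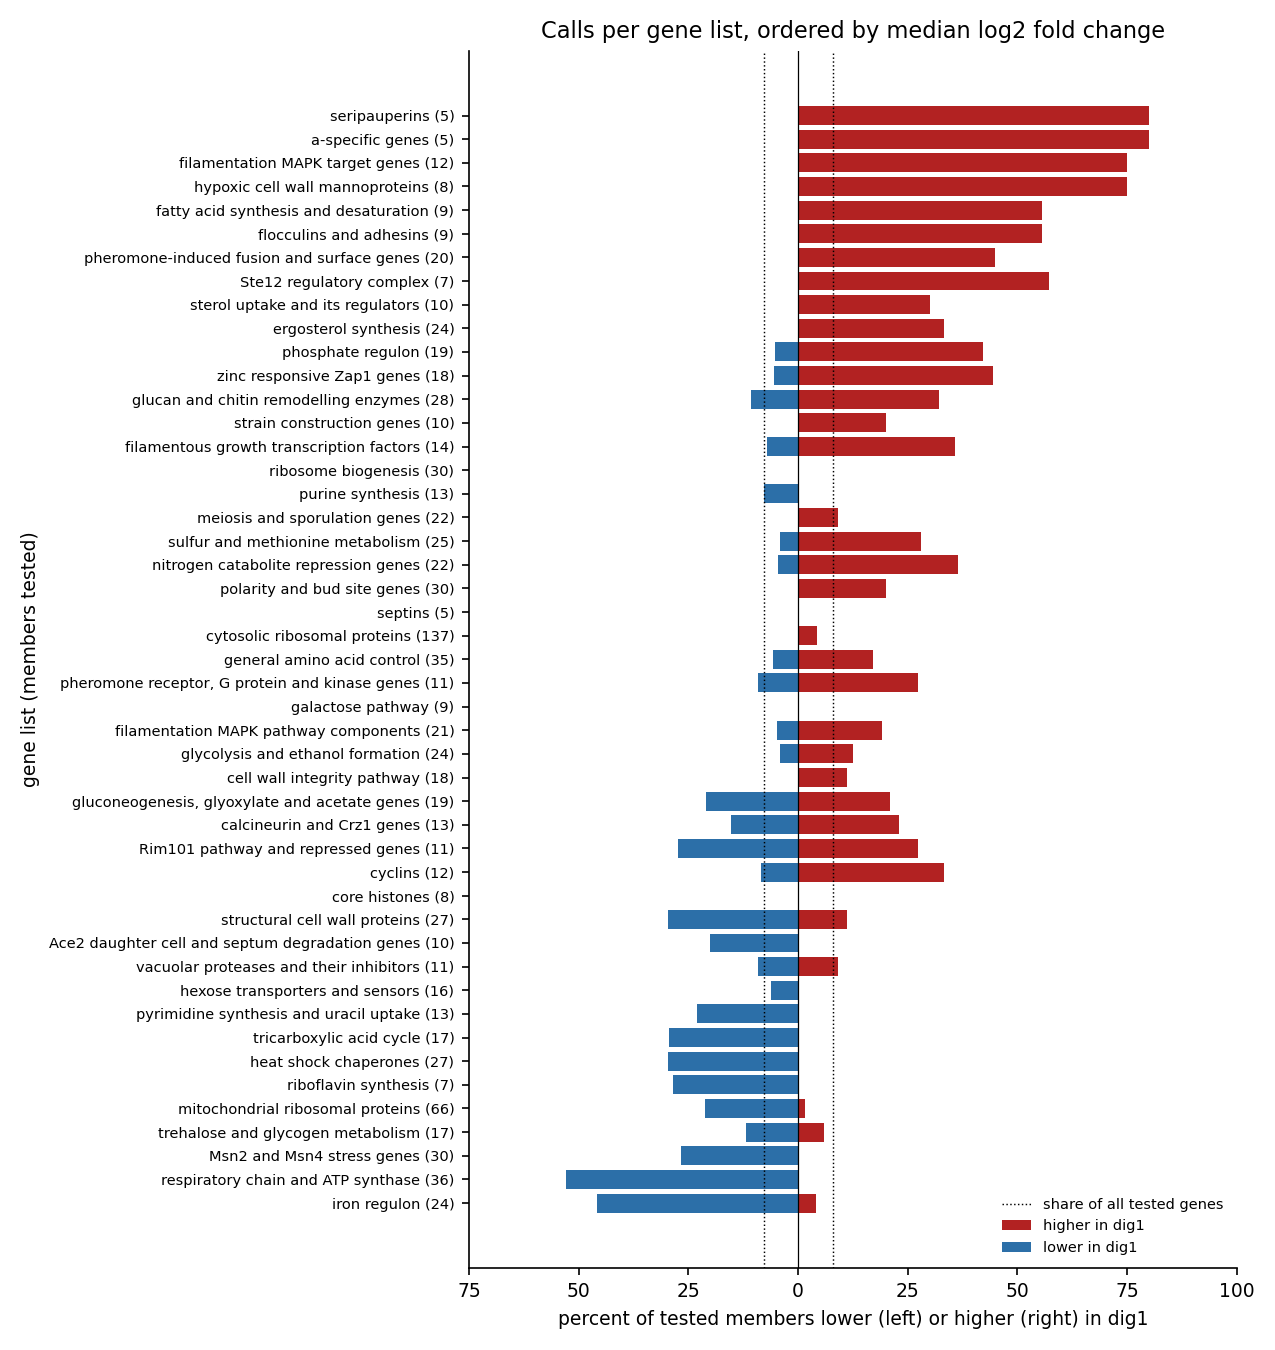
Percent of the tested genes of each list that were higher (right) or lower (left) in dig1, for lists of at least 5 tested genes, with dotted lines at the shares over all tested genes, 8.02% higher and 7.69% lower. Seripauperins (4 of 5 higher), a-specific genes (4 of 5 higher) and respiratory genes (19 of 36 lower) lie far from those lines.

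Lists without a call included the galactose pathway (0 of 9), ribosome biogenesis (0 of 30) and core histones (0 of 8). Their median log2 fold changes were 0.11, 0.22 and -0.06 in that order, and 28 of the 30 ribosome biogenesis genes had a positive value. Galactose was the carbon source of both groups. Of 22 tested meiosis and sporulation genes 2 rose, which is 9.09% against 8.02% over all tested genes. Of these 2, SGA1 lies on chromosome IX and had -0.13 relative to it. A few genes outside the lists were picked after their values were seen. Of the genes of ribonucleotide reductase, RNR3 rose by 2.36 ± 0.26 (adjusted p = 2.94e-06; 1.56 relative to chromosome IX), RNR2 by 0.70 and RNR4 by 0.70, while RNR1 had -0.08 and did not pass. HUG1, which encodes an inhibitor of this enzyme, rose from 4.52, 3.58 and 6.63 CPM to 20.1, 24.9 and 24.5 CPM (2.24 ± 0.31, adjusted p = 3.95e-05). INO1, inositol phosphate synthase, rose by 1.52 and the water channel gene AQY1 by 2.00. Counts on the 90 Ty retrotransposon features, whose copies are near-identical so that reads are uncertain, summed to 123 CPM ± 8.63 (SD, n = 3) in dig1 and 77.0 CPM ± 4.32 (SD, n = 3) in the wild type, with 4 of 10 tested features higher.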

How the data were processed

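Counts of reads per feature were deposited by the authors as whole numbers, not normalized, in 1 table per library. Per the submitters' processing notes, which give names without roles or settings, bcl2fastq, TopHat2 2.0.19, HTSeq 0.6.1 and build R64 were used. For the annotation, the filters and strand, settings were not given in the sources used here, so overlapping, antisense and near-identical genes are uncertain. Groups and replicate numbers came from the labels. HTSeq's records without a gene (46.9% to 47.8% of alignment records in dig1, 42.3% to 42.9% in wild type) stayed out of library sizes and tests. Symbols and coordinates came from the RefSeq R64 table (6048 of 7126 features matched).

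Counts of all 21 libraries were fitted with edgeR 4.0.16 in R 4.3.3 (filterByExpr, TMM, a mean per group, quasi-likelihood test), so that 7 groups share 1 spread per gene. The contrast was dig1 minus wild type, two-sided, adjusted over 5786 genes, with a threshold of 0.05. SE is the log2 fold change over the square root of F. Lists are given as counts and medians, with no set test. DESeq2 1.42.0, other scalings, filters, blocks and left-out replicates were alternatives. In simulated counts of 5747 genes for this contrast, 88% and 78% of 2-fold rises and falls and 100% and 98% of 4-fold ones were recovered, with 4.21% false calls. Each simulated library was drawn independently. The closeness of replicate 3 to a mean of replicates 1 and 2 and the shift of chromosome IX were not simulated. The 4.21% may therefore not hold for the real libraries. Intervals cover counting error only.

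The members and lists were chosen with earlier results of these data known. AFB1 was moved from the a-specific to the alpha-specific list after its values were seen. Named genes were DIG1, DIG2, STE12, TEC1, FLO11, the 12 largest rises and falls without overlap (only genes with a symbol whose higher group averaged 50 counts or more), the 8 largest gains and losses in CPM, up to 6 called members per list and members of the mating and filamentation lists. Motifs were sought in the 300 bases before the start codon of 5506 tested genes.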

Additional observations from a re-analysis of the deposited data

Results flagged for a closer look

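The share of alignment records placed at more than 1 position, which enters no gene count, was 27.9% in dig1 (27.3% to 28.6% in the 3 libraries). It was 20.8% to 21.6% in the wild type, and the means of the other 5 mutant groups lay between 18.8% and 24.3%. The signal stood out because it lies outside the counts that were compared and above the level of the wild-type libraries.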

How the results depend on the processing

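Over 16 alternatives (13 planned, 3 chosen after seeing the data), 60 of the 188 named genes kept their direction and their side of the threshold in every one. List medians have no threshold, and 28 of the 49 moved in every alternative by less than the SD of that median over the 3 dig1 libraries. Fitting the 6 libraries alone gave 385 changed genes (281 higher, 104 lower, 27 lower by at least 2-fold) and medians of 0.286 for chromosome III and 0.859 for chromosome IX; this fit has fewer samples. Leaving out replicate 3 of all groups gave 210 (162 higher, 48 lower, 23 lower by at least 2-fold), 0.264 and 0.851. With the chromosome medians taken out, 294 genes were higher, and SGA1 (-0.125) and RSM25 (-0.0457) turned negative by the construction of that fit. The median of chromosome III was 0.262 with DESeq2 and with its size factors, and without TMM the medians were 0.168 and 0.731. TMM from genes off both chromosomes gave 0.271 and 0.835. Leaving out 1 library gave 663 to 973 changed genes, 392 to 509 higher, 254 to 464 lower, 147 to 166 higher and 37 to 81 lower by at least 2-fold, and medians of 0.246 to 0.275 and 0.808 to 0.854. The hexose transporter median, -0.17, ranged from -0.206 to 0.221 when 1 library was left out, with 0.0296 without dig1 replicate 2 and the highest value without wild-type replicate 2; the cause was not tested.

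Same-numbered deviations of dig1 and wild type correlated at 0.413, 0.427 and -0.0162 for replicates 1, 2 and 3. The correlation was -0.439 between dig1 replicate 1 and wild-type replicate 2, and -0.411 between dig1 replicate 2 and wild-type replicate 1. Replicate 3 of each group lay close to a weighted mean of replicates 1 and 2. The contrast therefore rests on replicates 1 and 2 alone and cannot settle whether replicate numbers pair the samples. The main fit had no replicate block. With the replicate block 1107 genes changed (546 higher, 561 lower), and in the 6 libraries alone with the block 583 changed (191 lower), with medians of 0.281 and 0.856. Recovery by count level was not tested.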
